A study of Mus musculus with 2 samples.

Results

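The genes of the mitochondrial respiratory chain and of ATP synthase were compared between 2 pools of mouse liver. Of 18193 genes named on the arrays, 83 belonged to this group. They were chosen by a rule on names: every gene whose symbol starts with Nduf, Uqcr or Atp5, together with Sdha, Sdhb, Sdhc, Sdhd, Cyc1, Cycs, Cox5a, Cox5b, Cox6c, Cox7c, Cox10, Cox11, Cox15 and Cox17. The rule uses no measured value, but it was set with earlier results of these data known. It also holds Cox7b, which is not analysed here. The livers came from C57BL/6J mice aged 2 months, each injected in the tail vein with 1000000000 plaque-forming units of adenovirus and killed on day 3. The control animals carried virus too: the Ad-control pool joined livers of 4 mice that received the empty vector, and the Ad-PDK4 pool livers of 3 mice that received the vector with PDK4, pyruvate dehydrogenase kinase 4. Each pool was measured on 1 array, so the spread between animals is unknown, no test between the groups can be made, and all values describe these pools. The single probe set named for Pdk4 had a signal of 234 in the pool labelled Ad-control and 177 in the pool labelled Ad-PDK4, a log2 difference of -0.39, which goes against the label. Whether that probe set can read the vector's own transcript was not tested. Every direction below is therefore one between pools as labelled.

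The respiratory chain passes electrons from NADH and succinate to oxygen and pumps protons out of the mitochondrial matrix. Complex I oxidizes NADH and complex II, succinate dehydrogenase, oxidizes succinate; both reduce coenzyme Q. Complex III moves electrons from coenzyme Q to cytochrome c, complex IV moves them from cytochrome c to oxygen, and complex V, ATP synthase, lets protons return and makes ATP. Liver is rich in mitochondria and uses the chain for fatty acid oxidation, gluconeogenesis and urea synthesis. PDK4 acts upstream, by blocking the entry of pyruvate carbon into the tricarboxylic acid cycle.

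Each gene was read by its brightest probe set, a group of short probes for the same transcript. A probe set counted as measured where its signal reached the median signal of the array, 93.4 on the Ad-control and 99.9 on the Ad-PDK4 array. Differences are log2 signals of the pool labelled Ad-PDK4 minus those of the pool labelled Ad-control, set relative to the median measured probe set, so a value of 0 means the same as the middle transcript of these arrays. Of the 83 genes, 81 were measured on both arrays. The other 2 were under the floor on both: Ndufa4l2, a paralog of Ndufa4 that is known from hypoxia (signals 38.8 and 75.4), and Ndufb4, whose only probe set with a single gene name had signals of 28.2 and 25.4. Brighter probe sets listed Ndufb4 beside other gene names and could not be assigned to it; they had 13413 and 11583 (-0.20), and 8436 and 6761 (-0.30). In all, 10 probe sets carried the name of a gene of the chain beside other names and were left out of every count. Among them, a probe set listing Ndufs6 had 7095 and 5473 (-0.36), and the brighter one listing Ndufa11 had 4570 and 5312 (0.23); these genes are not analysed further here.

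Respiratory chain and ATP synthase transcripts were close to equal in the 2 pools. Small differences were counted from 0.32 log2 units, and large ones from 1.5-fold. Of the 81 measured genes, 73 lay within 0.32 of 0, 4 were higher by 0.32 or more in the pool labelled Ad-PDK4 and 4 were lower by as much. Over all 10389 measured genes the shares were 21.7% higher and 16.5% lower. The median difference of the 81 genes was -0.018, with 36 above 0, against 0.015 for all measured genes. That median had no settled sign: it was 0.037 with loess centring and 0.060 after quantile normalization. The share within 0.32 of 0 was 90.1%, against 61.8% of all measured genes, and it stayed between 88.5% and 92.6% under every floor, centring and probe set rule tried.

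Bright genes vary less on arrays, and 70 of the 81 genes were among the 2078 brightest measured genes, whose mean signal was at least 2259. Among these, 91.4% of the 70 respiratory genes lay within 0.32 of 0, against 76.3% of the other 2008 genes. The cut sets only a lowest signal, and the 2 sets were not matched for signal above it. The 7 other measured cytochrome c oxidase subunits, which are not among the 83 genes, also lay within 0.32 of 0. The standard deviation of the differences was 0.18 over the 70 genes and 0.35 over the other 2008. Of the 70 genes 2 were higher and 4 lower by 0.32 or more, against 8.9% and 14.2% of the 2078. Past 1.5-fold there were 0 of the 70 in either direction, against 2.89% of the 2078 higher and 2.84% lower. These are descriptions of 2 arrays, and genes of the same complex are not independent of each other. The plot of signals shows most of the respiratory genes along the diagonal at the bright end. The dimmer ones, not marked by class in the plot, include assembly factors and the subunits Cox7c and Ndufb1.

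**Figure D1:**
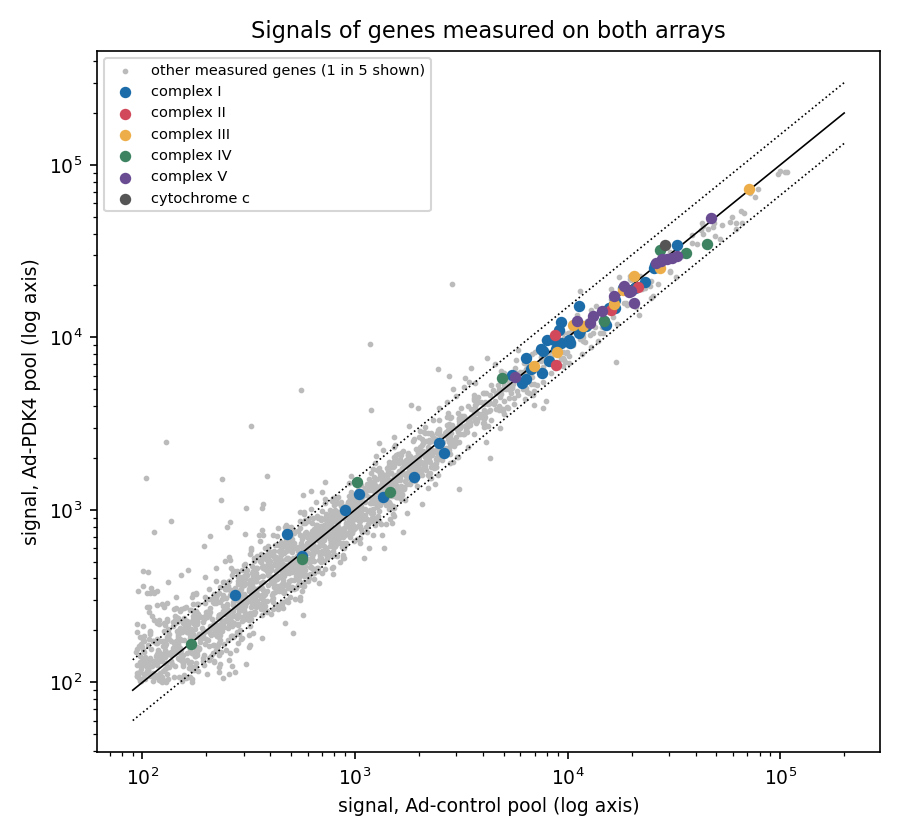
Signal of each gene in the pool labelled Ad-PDK4 (y axis, log scale) against the Ad-control pool (x axis, log scale); coloured points are the 81 measured respiratory chain and ATP synthase genes by complex, grey points 1 in 5 of the other measured genes. The solid line marks equal deposited signals and the dotted lines a 1.5-fold difference; of the coloured points, 1 lies outside the dotted lines, Ndufaf7.

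**Figure D2:**
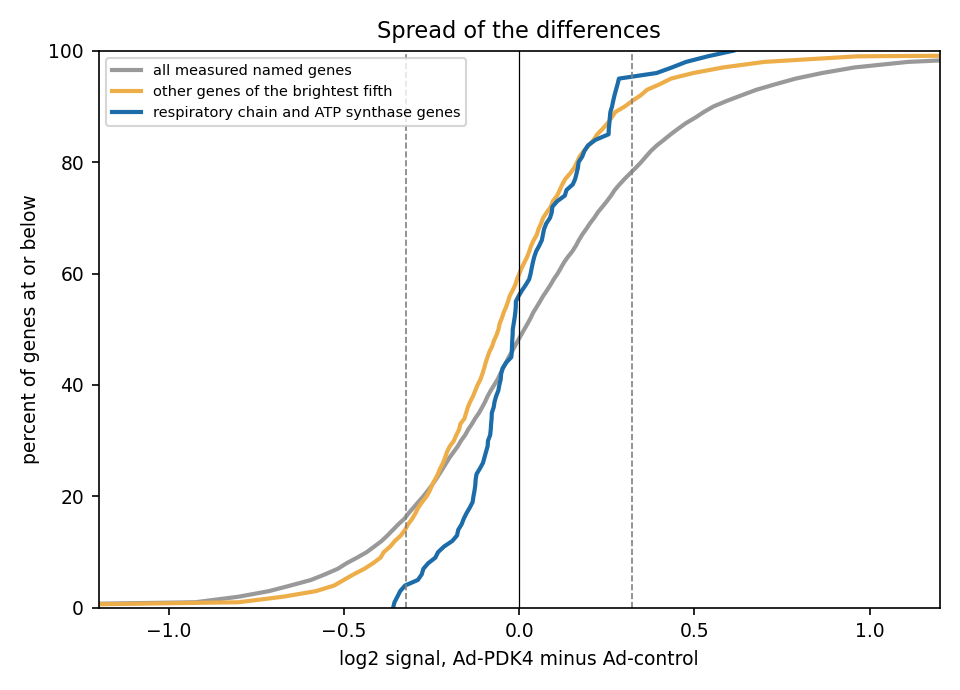
Percent of genes (y axis) at or below each log2 difference, Ad-PDK4 minus Ad-control (x axis), for the 81 respiratory chain and ATP synthase genes, the other 2008 of the 2078 brightest genes and all 10389 measured genes. Dashed lines mark 0.32 on either side of 0; the curve of the respiratory genes is the steepest of the 3 and has 90.1% of its genes between them.

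The error scale came from probe sets of the same gene. Over 42 respiratory genes with several measured probe sets, the pooled standard deviation between probe sets was 0.17, against 0.28 over 1211 of the brightest genes and 0.35 over 4326 genes of the whole array. Of the 81 genes, 52 differed by less than 0.17, and 7 by more than 0.34, which is 2 of these standard deviations. In 24 of the 42 genes all probe sets fell on the same side of 0 (10 above, 14 below), and in 18 they fell on both sides. The share on the same side was 57.1%, against 52.6% of the brightest genes and 49.4% of all genes with several probe sets. The direction was not settled for the 18 genes with probe sets on both sides: Atp5a1, Atp5d, Atp5j2, Atp5o, Cox10, Ndufa5, Ndufa7, Ndufb2, Ndufb5, Ndufb8, Ndufb9, Ndufb11, Ndufc1, Ndufs4, Ndufs8, Ndufv2, Uqcr10 and Uqcrb. Errors of pooling, labelling and hybridizing act on a gene's probe sets alike and are not in this scale.

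**Figure D3:**
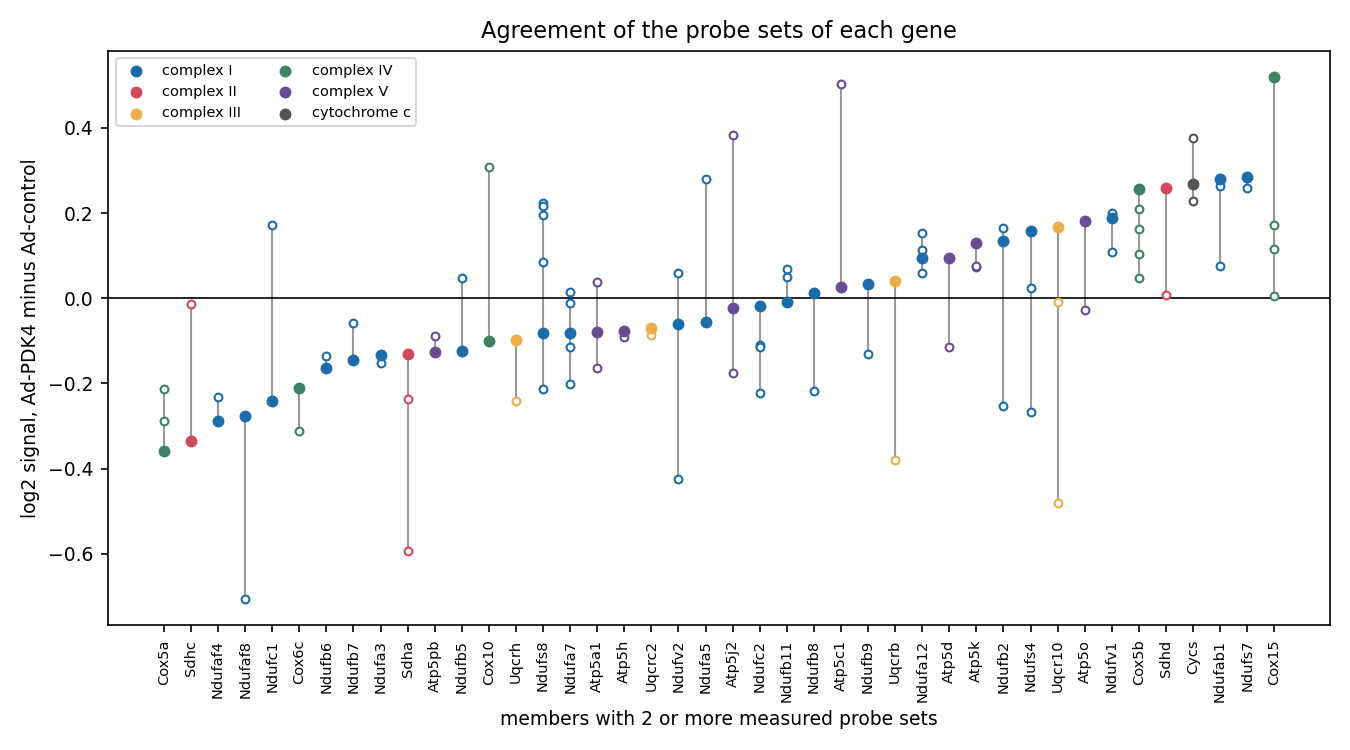
Log2 difference, Ad-PDK4 minus Ad-control (y axis), of every measured probe set of the 42 genes with 2 or more (x axis, ordered by the brightest probe set). Filled points are the brightest probe set, which stands for the gene, open points the others and grey lines their range; 24 genes have all points on the same side of 0.

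The 4 genes higher by 0.32 or more were Ndufaf7, Cox15, Ndufa8 and Ndufb3, and the 4 lower ones were Cox5a, Atp5l, Ndufv3 and Sdhc. They came from complexes I, II, IV and V, and complex III had none. A single gene, Ndufaf7, passed 1.5-fold, and none of the 81 (0) was 1.5-fold lower; among all measured genes 9.21% were higher and 5.2% lower by that much. The balance of the 2 directions depended on the scaling: with loess centring 9 genes were higher and 0 lower by 0.32 or more, and quantile normalization gave 9 and 0 as well. In the plot by complex the points of each complex straddle 0.

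**Figure D4:**
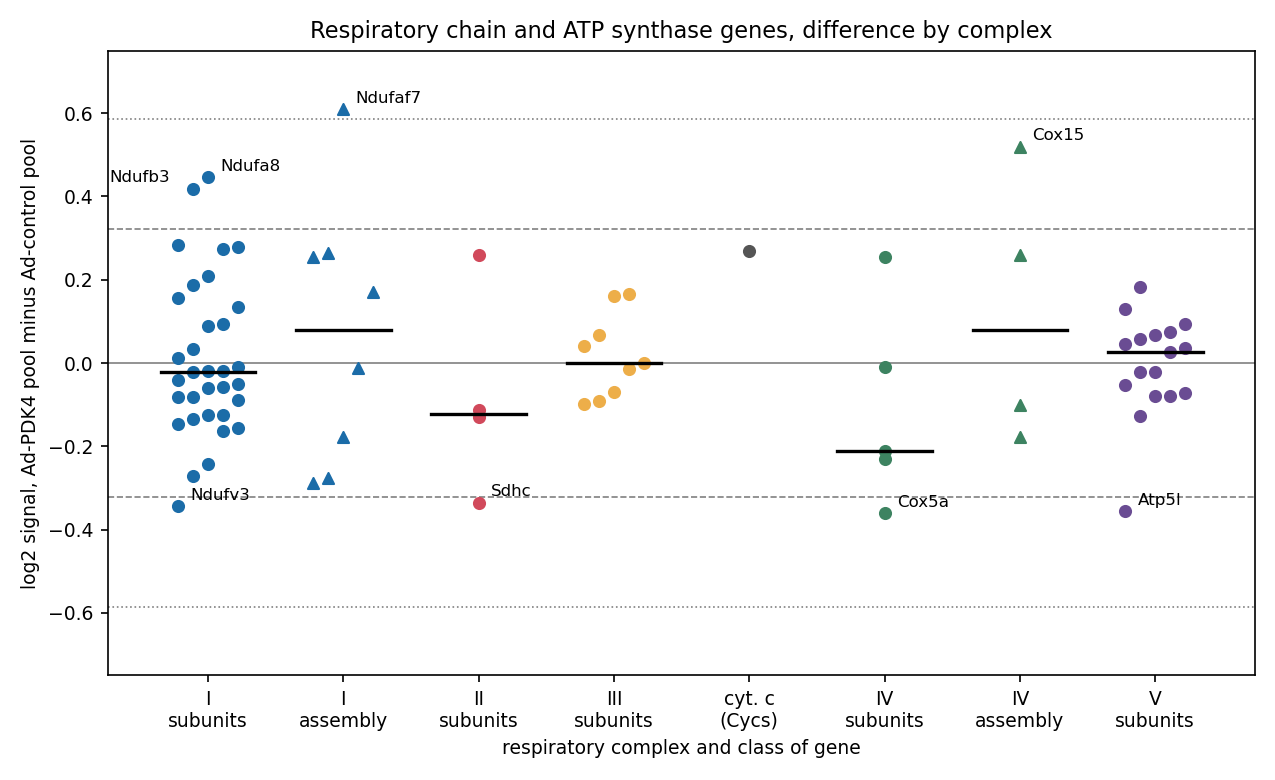
Log2 difference, Ad-PDK4 minus Ad-control (y axis), of the 81 measured genes by complex and class (x axis); circles are structural subunits and cytochrome c, triangles assembly factors, and black bars group medians. Dashed lines mark 0.32 and dotted lines 1.5-fold; the 8 named genes lie outside the dashed lines and Ndufaf7 alone outside the dotted lines.

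Promoter sequence was available for 69 of the 83 genes in the RefSeq table (GRCm38.p6), as the 250 bases before each start site. Nuclear respiratory factor 1 and ETS factors such as GABP are known regulators of these genes, and their motifs were counted on both strands. The letters GCATGCGC of the first motif were present in 8 of the 69 genes (11.6%), against 5.09% of 8449 measured genes and 2.56% of all 27025 genes with a window. The ETS letters CCGGAAG were present in 13 of the 69 (18.8%), against 15.8% of measured genes and 7.83% of all. The letters GGGCGG bound by Sp1 were present in 28 (40.6%), against 63.1% of measured genes and 35.4% of all. The YY1 letters AAGATGGCG were present in 1 gene of the group (1.45%), Atp5j, against 1.42% of measured genes and 0.71% of all. Median base composition was similar, with 58.6% G and C in windows of the group and 59.6% in windows of measured genes. The windows of 3 genes with the first motif are shown, because they belong to the subunit of complex I that was highest in the pool labelled Ad-PDK4 (Ndufa8), to cytochrome c (Cycs), which was higher in all its probe sets, and to the lowest gene of ATP synthase (Atp5l). Capitals mark GCATGCGC, CCGGAAG and GGGCGG or their reverse complements, and each window reads in the direction of its gene.
Ndufa8, chr2:36049339-36049588, minus strand: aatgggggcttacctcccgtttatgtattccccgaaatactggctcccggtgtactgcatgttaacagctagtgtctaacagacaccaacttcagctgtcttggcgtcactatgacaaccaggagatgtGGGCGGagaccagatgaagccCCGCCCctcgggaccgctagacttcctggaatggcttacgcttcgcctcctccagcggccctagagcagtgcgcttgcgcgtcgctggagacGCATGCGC
Cycs, chr6:50566570-50566819, minus strand: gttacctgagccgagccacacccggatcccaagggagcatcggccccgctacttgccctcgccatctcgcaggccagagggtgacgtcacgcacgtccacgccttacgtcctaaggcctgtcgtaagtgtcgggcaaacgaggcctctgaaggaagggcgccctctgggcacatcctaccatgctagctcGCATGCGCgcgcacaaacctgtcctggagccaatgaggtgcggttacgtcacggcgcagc
Atp5l, chr9:44920743-44920992, minus strand: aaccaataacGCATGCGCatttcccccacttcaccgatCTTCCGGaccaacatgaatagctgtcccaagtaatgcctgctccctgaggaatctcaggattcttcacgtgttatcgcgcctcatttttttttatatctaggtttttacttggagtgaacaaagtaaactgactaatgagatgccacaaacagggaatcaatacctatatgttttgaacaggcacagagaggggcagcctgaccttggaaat
In Ndufa8 the motif of nuclear respiratory factor 1 ends just before the start site, and the GGGCGG letters occur upstream on both strands. In Atp5l it lies at the far end of the window near an ETS motif. These 3 genes were picked by their differences, so their directions carry no information on the motif. The measured genes with this motif (8 genes) had a median difference of -0.0075 and the 60 without it -0.017; for the ETS letters the medians were -0.090 (13 genes) and 0.00061 (55 genes).

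In complex I, 33 structural subunits were measured, with a median difference of -0.021 and 13 above 0. The range ran from -0.34 to 0.45, with 2 subunits higher and 1 lower by 0.32 or more. Ndufa8, an accessory subunit next to the membrane arm, had a signal of 11264 in the pool labelled Ad-control and 15202 in the pool labelled Ad-PDK4, a 1.36-fold difference. Ndufb3, an accessory subunit of the distal membrane arm, had 9297 and 12302, or 1.34-fold. Both are read by a single probe set, and both stayed at or above a log2 difference of 0.40 in every setting tried. At the other end, Ndufv3, an accessory subunit of the NADH-oxidizing part, had 15185 and 11853, a log2 difference of -0.34. Ndufa2, of the same part, had 7575 and 6210, a difference of -0.27.

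The modules of complex I had medians close to each other by the brightest probe sets, but their signs were not settled. The N module, which oxidizes NADH and holds the flavin site, had a median of -0.051 over 9 subunits, 0.016 with loess centring, 0.042 after quantile normalization and 0.15 without probe sets marked as matching more than 1 transcript. Under that last rule only Ndufa6, Ndufa12, Ndufs4, Ndufv1 and Ndufv2 had a value. The median was then the value of a dim probe set of Ndufa12 (130.4 and 143.5). The Q module, where coenzyme Q is reduced, had one of -0.038 over 4, and it was 0.13 when probe sets were combined by their median. The proximal membrane arm had a median of -0.054 over 8 subunits and the distal arm -0.026 over 10. Within each module single subunits differed in sign. In the N module the core subunits Ndufs1 (signals 6364 and 7617, difference 0.27) and Ndufv1 (8586 and 9685, 0.19) lay above 0. Ndufv1, which carries the flavin, was higher in 3 of 3 probe sets, from 0.11 to 0.20. Ndufv2, its iron-sulfur partner, was at -0.060, with probe sets from -0.43 to 0.059. In the Q module Ndufs7, a core iron-sulfur subunit, had 7989 and 9633 and was higher in 2 of 2 probe sets (0.28 and 0.26). Ndufs8, its neighbour in the iron-sulfur chain, was at -0.081 by its brightest probe set and above 0 in 4 of 6 probe sets. Ndufs3, another core subunit, differed by -0.019. Of the 6 core subunits measured, 3 were thus above 0 and 3 below, all within 0.32. Ndufab1, the mitochondrial acyl carrier protein, had 9127 and 10968, a difference of 0.28, and its 3 probe sets measured on both arrays lay between 0.076 and 0.28. Another was above the floor on the Ad-control array only (119 and 77.2), and another on the Ad-PDK4 array only (88.8 and 116). Accessory subunits that were lower in every measured probe set included Ndufb6 (-0.16 and -0.14), Ndufb7 (-0.15 and -0.059) and Ndufa3 (-0.13 and -0.15). Ndufa12, an accessory subunit, was higher in 4 of 4 probe sets, by at most 0.15.

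Complex II is encoded wholly in the nucleus, and 3 of its 4 genes were lower in the pool labelled Ad-PDK4; of the 2078 brightest genes 1243 were below 0 as well. Sdha, the flavoprotein that holds the succinate site, had signals of 15934 and 14409, a difference of -0.13, and its other probe sets gave -0.24 and -0.59. Sdhb, the iron-sulfur subunit, had 21510 and 19700, a difference of -0.11, which is less than the disagreement between probe sets, and it turned to 0.012 after quantile normalization. Sdhc, the larger membrane anchor, had 8776 and 6888, a difference of -0.33, but its other probe set gave -0.014. Sdhd, the smaller anchor, went the other way with 8701 and 10307, a difference of 0.26, and its other probe set gave 0.0079. The 2 anchors of the same complex therefore lay on opposite sides of 0 by their brightest probe sets and close together by their others. The median of the complex was -0.12, and it lay between -0.14 and -0.010 in the settings tried.

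Complex III had the narrowest range of the 5 complexes by the brightest probe sets, though not without those marked as matching more than 1 transcript, where it ran from -0.48 to 0.16. By the brightest probe sets its 9 subunits had a median of 0.00061 and lay between -0.098 and 0.17. The highest were Uqcr10, a small subunit (10605 and 11787, 0.17), and Cyc1, cytochrome c1 (20626 and 22838, 0.16). Cyc1 is read by a single probe set, while the other probe sets of Uqcr10 gave -0.0099 and -0.48. The lowest were the hinge protein Uqcrh (27147 and 25116, -0.098) and the small subunit Uqcr11 (8869 and 8247, -0.090). The Rieske iron-sulfur protein gene Uqcrfs1 had 11814 and 11700, and the core protein genes Uqcrc1 and Uqcrc2 differed by -0.015 and -0.069. When probe sets marked in their names as matching more than 1 transcript were left out 6 of the 9 genes had a value and their median was -0.17. Uqcrb, Uqcr10 and Uqcrh were then read by probe sets at -0.38, -0.48 and -0.24.

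Cytochrome c, which carries electrons from complex III to complex IV, was higher in every measured probe set. The brightest probe set of Cycs had signals of 28755 and 34301, a difference of 0.27. The others had 19189 and 24674 (0.38), and 8407 and 9751 (0.23). Each of the 3 differed by more than 0.17, and Cycs stayed between 0.23 and 0.37 in the settings tried. Cyc1, its electron donor in complex III, stayed between 0.15 and 0.27.

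Complex IV had subunits on both sides of 0, and in the 3 subunits with several probe sets these pointed the same way within a gene. Cox5a, which binds at the matrix side of the enzyme, had signals of 45175 and 34850 in its brightest probe set, a difference of -0.36. Its other probe sets had 24117 and 19558 (-0.29), and 17288 and 14767 (-0.21), so 3 of 3 were lower. Cox5b, the zinc-binding subunit, had 27213 and 32166, a difference of 0.26, and 5 of 5 probe sets were higher, from 0.048 to 0.26. Cox5a and Cox5b are nuclear-encoded parts of the same enzyme, and the ranges of their probe sets did not overlap. Cox6c was lower in 2 of 2 probe sets (36155 and 30937, -0.21; 17988 and 14354, -0.31). Ndufa4, named for complex I and now placed in complex IV, had 14757 and 12443, a difference of -0.23. Cox7c was read by a dim probe set only (169 and 166, -0.0095). The median over these 5 subunits was -0.21. Over those with a value, it lay between -0.23 and -0.11 in the settings tried, below 0 in each. Without Ndufa4 the median was -0.11. The other 7 measured cytochrome c oxidase subunits on a list of general and tissue forms lay between -0.15 (Cox6a1) and 0.12 (Cox6b1), with a median of -0.027.

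By the brightest probe sets, ATP synthase lay close to 0 apart from a single gene. Its 17 subunits had a median of 0.028, and 16 of them lay between -0.13 and 0.18. The exception was Atp5l, subunit g of the membrane part, with signals of 20538 and 15898, a difference of -0.35 on its only probe set, and between -0.37 and -0.23 in the settings tried. With dimmer probe sets included, Atp5c1 ranged from 0.028 to 0.50 and Atp5j2 from -0.18 to 0.38. Without probe sets marked as matching more than 1 transcript, 13 subunits had a value and ran from -0.35 to 0.50. In the F1 head and central stalk, which make ATP, 5 subunits had a median of 0.046: Atp5b, the catalytic beta subunit, had 27685 and 28299 (0.046), and Atp5a1, the alpha subunit, 19911 and 18662 (-0.079). In the peripheral stalk, which holds the head still, Atp5pb, subunit b, had 32786 and 29724 (-0.13), and Atp5h and Atp5j were at -0.078 and -0.072. Atp5o, the oligomycin sensitivity protein of the same stalk, had 11051 and 12415 (0.18) with its other probe set at -0.027. The proton-carrying c ring is encoded by Atp5g1, Atp5g2 and Atp5g3, which share the same mature protein. Atp5g1 had 14587 and 14237 (-0.021), Atp5g2 13190 and 13391 (0.036) and Atp5g3 47133 and 49137 (0.075), so each differed by less than 0.17, although Atp5g3 reached 0.19 with loess centring and 0.24 after quantile normalization. Atp5k, subunit e and a neighbour of Atp5l in the membrane, had 18319 and 19832 and was higher in 3 of 3 probe sets, from 0.074 to 0.13.

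Set side by side, the complexes had medians of -0.021 (I), -0.12 (II), 0.00061 (III), -0.21 (IV) and 0.028 (V). The low medians of complexes II and IV rest on 4 and 5 genes. With the other 7 cytochrome c oxidase subunits of the pathway list counted in, an alternative chosen after seeing the data, complex IV had a median of -0.030 over 12 subunits, and it turned to 0.033 with loess centring and 0.043 after quantile normalization. The medians of complexes I, III and V changed sign between settings, whereas those of the 4 genes of II and the 5 members of IV stayed below 0. Without probe sets marked as matching more than 1 transcript, the medians of II and IV rest on 3 and 4 genes. At the 70th percentile floor that of IV rests on 4. Differences between the complexes were not tested, since genes are not replicates of a pool.

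Assembly factors build the complexes without remaining in them, and 12 were measured, 8 for complex I and 4 for complex IV. They ran from -0.29 to 0.61, with a standard deviation of 0.30, against 0.17 for the brighter subunits and 0.45 for all genes in the signal range of the assembly factors. Ndufaf7, a methyltransferase that modifies a core subunit of complex I, had signals of 480 and 725, or 1.53-fold higher in the pool labelled Ad-PDK4. It is read by a single probe set, and its name marks it as matching more than 1 transcript. Ndufaf2 (1039 and 1236, 0.26) and Ndufaf5 (272 and 322, 0.26) lay above 0 as well. Ndufaf4 was lower in 2 of 2 probe sets (2629 and 2129, -0.29; the other -0.23). Ndufaf8 was also lower in 2 of 2 (1903 and 1557, -0.28; 439 and 266, -0.71). For complex IV, Cox15, which makes heme A, had 1020 and 1447 in its brightest probe set, or 1.43-fold, but its other probe sets gave 0.17, 0.12 and 0.0042. Cox17, the copper chaperone, had 4931 and 5839, a difference of 0.26. Cox11, which delivers copper to the enzyme, had 1455 and 1273 (-0.18), and Cox10, which makes heme O, 563 and 520 (-0.10; the other probe set 0.31).

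Structural subunits had a median of -0.020 over 68 genes and assembly factors one of 0.079 over 12. The medians thus differed by -0.098, subunits minus assembly factors. The sign of this difference depended on the choice of probe sets: without those marked as matching more than 1 transcript, a rule under which Ndufaf7 has no value, it was 0.093. Assembly factors were also dimmer, and the 6695 genes in their signal range had 1285 higher and 1037 lower by 0.32 or more. Of the 12 assembly factors 2 were higher and 0 lower by as much, and of the 68 subunits 2 were higher and 4 lower.

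**Figure D5:**
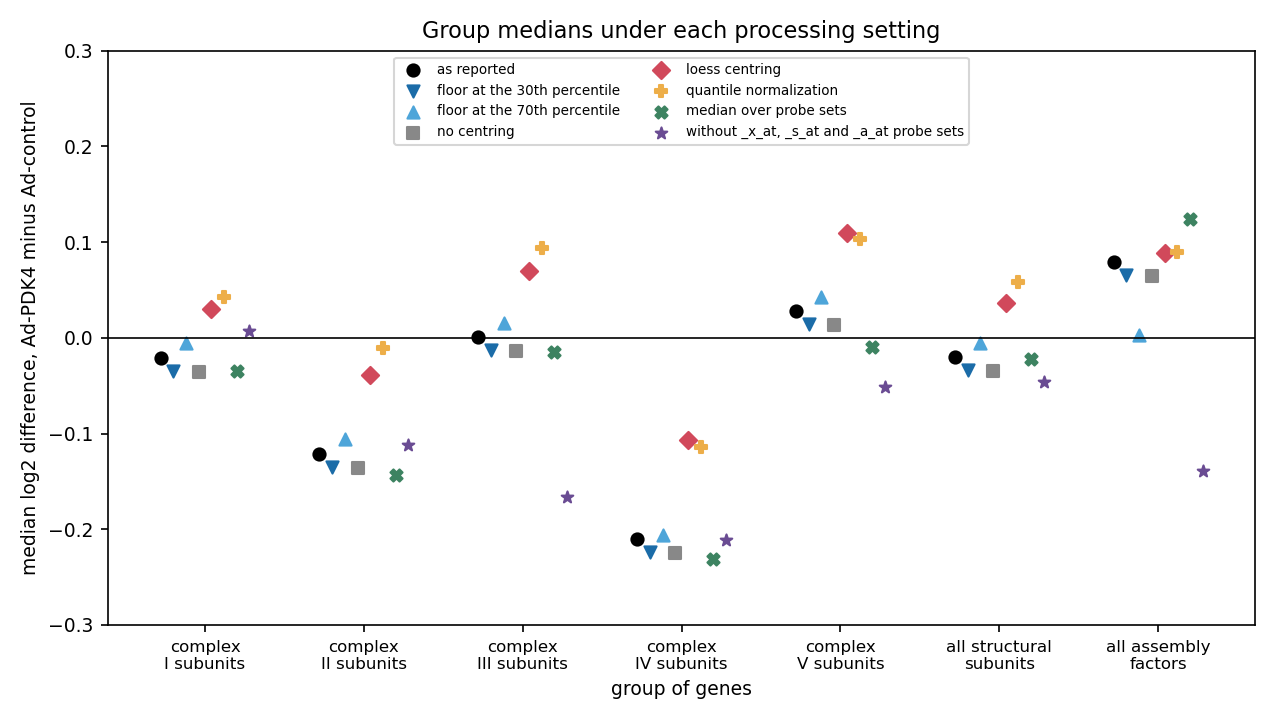
Median log2 difference, Ad-PDK4 minus Ad-control (y axis), of the subunits of each complex, of all structural subunits and of all assembly factors (x axis) as reported and under 7 other settings of floor, centring and probe set choice (symbols). The medians of complex II and of the complex IV members with a value are below 0 under all 8 settings. As reported, complex II has 4 genes and complex IV 5. Without probe sets ending in _x_at, _s_at or _a_at they have 3 and 4, and at the 70th percentile floor complex IV has 4. The median of the assembly factors ranges from -0.14 to 0.12.

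Genes that serve the chain but are not among the 83 were read from lists of the pathway. Of 34 other assembly factors measured, 6 were higher and 3 lower by 0.32 or more, and their median was 0.0025. All measured genes had 21.7% higher and 16.5% lower by as much, which is the background for the counts of this list and of the short lists that follow. At least 1.5-fold higher were Bcs1l, which inserts the Rieske protein into complex III (381 and 652, 0.79), and Cox18, a membrane insertase for complex IV (645 and 992, 0.64). At least 1.5-fold lower were Sco1, a copper chaperone (257 and 118, -1.11), and the insertase Oxa1l (472 and 251, -0.90, with another probe set at 1.09). Sco1 had 1 measured probe set, and its signal of 118 lies close to the floor of 99.9 on the Ad-PDK4 array. In coenzyme Q synthesis, 2 of 12 were higher and 2 lower by 0.32 or more. Coq8a, a kinase-like protein, had 2501 and 1478 and was lower in 2 of 2 probe sets (-0.74 and -0.80), and Coq5, a methyltransferase, had 522 and 787 (0.61). Among 8 other donors of electrons to coenzyme Q, 1 was higher and 3 lower by 0.32 or more. Of the 8 donors 7 were below 0, against 5031 of all 10389 measured genes, and their median was -0.21. Most of the donors are bright, and of the 2078 brightest genes 1243 were below 0. Gpd2, the mitochondrial glycerol phosphate dehydrogenase, had 2710 and 4209 and was higher in 3 of 3 probe sets (0.65 to 1.33), and Sqor, which oxidizes sulfide, had 6870 and 4661 (-0.55).

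Atpif1, the natural inhibitor of ATP synthase, had the largest difference of these lists on the higher side, with signals of 1593 and 3515, or 2.23-fold, on its only measured probe set. The other 6 measured genes of nucleotide exchange and membrane channels lay between -0.084 (Slc25a4) and 0.23. For mitochondrial DNA upkeep and transcription, 2 of 12 were higher and 1 lower by 0.32 or more. Tfb1m, a ribosomal RNA methyltransferase, had 557 and 985 (0.84), and its other probe set gave 0.46. Tfam, the main packaging and transcription factor, had 1741 and 2266 and was higher in 2 of 2 probe sets (0.40 and 0.41), while Polg2, a polymerase subunit, had 1059 and 801 (-0.39). Among 11 nuclear regulators, Nrf1, the gene of nuclear respiratory factor 1, had 206 and 324 (0.67), with other probe sets down to 0.030. Ppargc1b, a coactivator of mitochondrial genes, was the lowest (1776 and 1168, -0.59). Close to it was Ppargc1a (448.5 and 297, -0.58), lower in 3 of 3 probe sets, from -0.97 to -0.27. In this list 2 were higher and 3 lower by 0.32 or more. ND5, the mitochondrially encoded subunit of complex I that could be read, had 93659 and 91296 (-0.022).

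The pools differed in markers of other tissues and of dividing cells. Of 9 measured hepatocyte markers, 0 were higher and 2 lower by 0.32 or more, Pck1 (32383 and 22322, -0.52) and Cps1 (67433 and 52727, -0.34). Of the 9 markers 3 were above 0 and 6 below, with a median of -0.096. The highest was Alb, the albumin gene (97338 and 101771, 0.079). All 8 skeletal muscle markers were lower in the pool labelled Ad-PDK4, by -1.44 to -0.22, with a summed signal of 5058 and 2663. All 8 measured exocrine pancreas markers were higher, by 2.47 to 3.46 (summed signal 9612 and 76207), and all 5 measured proliferation markers by 2.59 to 5.13 (726 and 12395). Of 6 macrophage markers 5 were measured on both arrays, with 1 higher and 1 lower by 0.32 or more (summed signal 7973 and 7575), and of 5 fat cell markers 2 were measured on both, Adipoq (193 and 207, 0.12) and Retn (162 and 227, 0.50). Cidea was above the floor on the Ad-control array only, and Ucp1 and Lep were under it on both; the summed signal of the 5 was 490 and 452. Less RNA of a gene per cell and fewer cells that express it cannot be told apart in pooled tissue. The part of these tissues and of dividing cells in the values of the respiratory genes was not tested. The ratio of signals from the 3' and 5' ends rises as RNA degrades. For beta-actin it was 4.88 in the pool labelled Ad-control and 5.46 in the pool labelled Ad-PDK4. Gapdh had 0.785 and 0.806, whereas pyruvate carboxylase went the other way, with 9.26 and 7.96.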

How the data were processed

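RNA of each pool, 10 ug, was made into biotin-labelled cRNA by the Affymetrix procedure, per the labels' protocols. The deposited values are linear signal intensity, 1 per probe set for 45101 probe sets. For their software and background method, nothing is stated in the labels. On both deposited arrays the mean intensity without the highest and lowest 2% was 500.0, as arrays scaled to the same target would give. Besides 64 controls there were 45037 probe sets. Genes were named from the platform annotation where it gave a single symbol, and 83 of 83 members were found by Entrez identifier in RefSeq (GRCm38.p6). The floor was the 50th percentile of each array. Differences were centred on the median of 20151 probe sets measured on both arrays, a shift of -0.015, in Python 3.11.15 with pandas 2.3.3 and statsmodels 0.14.6. Calculations were tested on simulated data. Values named in the text are the 2 highest and 2 lowest of each complex and class, all genes past a log2 difference of 0.32, under the floor or with probe sets on both sides of 0, complex II, the c subunit genes, and the extremes of each other list; the remaining named genes, such as the core subunits, Cox6c and Tfam, were added with their values known. The members and lists were chosen with earlier results of these data known. With 1 array per group, no p-value was computed, and the number of arrays limits the precision. Alternatives were floors at the 30th and 70th percentile, no centring, loess (span 0.3), quantile normalization, the median over probe sets, and no probe sets ending in _x_at, _s_at or _a_at.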

Additional observations from a re-analysis of the deposited data

How the results depend on the processing

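With loess centring the median log2 difference was 0.037 for all genes, 0.036 for all structural subunits, 0.030 for complex I, 0.069 for III, -0.11 for IV and 0.11 for V; it was 0.016 for the N module, 0.030 for the proximal arm, 0.13 for the F1 head, 0.018 for the peripheral stalk and 0.077 for the small membrane subunits, and 9 genes were higher and 0 lower by 0.32 or more. Quantile normalization gave 0.060 for all genes, 0.059 for structural subunits, 0.042 for complex I, -0.010 for II, 0.094 for III, -0.11 for IV and 0.10 for V. It gave 0.042 for the N module, 0.071 for the proximal arm, 0.14 for the F1 head, 0.043 for the peripheral stalk, 0.15 for the c ring and 0.072 for the small membrane subunits. It also gave a difference of -0.031 between subunits and assembly factors, with 9 genes higher and 0 lower by 0.32 or more. A floor at the 70th percentile gave a median of 0.0032 for all assembly factors and for those of complex I, and the difference between the classes was -0.0085. At the 30th percentile, 2 genes were at least 1.5-fold higher, Ndufaf7 and Ndufa4l2. The signals of Ndufa4l2 (38.8 and 75.4) are under the main floor on both arrays. Without probe sets ending in _x_at, _s_at or _a_at, 61 genes had a value. The median was then -0.051 for all genes, -0.046 for structural subunits, -0.17 for complex III and -0.052 for V. It was 0.15 for the N module, 0.12 for the Q module and 0.031 for the proximal arm. For assembly factors it was -0.14 in all, -0.094 for complex I and -0.14 for complex IV, and the class difference was 0.093. Here 0 genes were 1.5-fold higher, since Ndufaf7 had no value, and 1 was 1.5-fold lower, Ndufaf8. The Q module had a median of 0.13 over combined probe sets. As means, all genes gave 0.011, complex I subunits 0.012, complex IV subunits -0.11 and the proximal arm 0.017. With Ndufa4 counted in complex I, complex IV gave -0.11, and with the other cytochrome c oxidase subunits, a choice made after seeing the data, it gave -0.030. The causes of these shifts, apart from the smaller sets, were not tested.

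Of the 61 genes with a value in all 8 settings of floor, centring and probe set choice, 36 kept the same sign (20 above 0, 16 below), among them Cox5a, Cox5b, Cox6c, Cycs, Ndufa8, Ndufb3 and Atp5l. Loess centring changed the sign of 16 genes and quantile normalization of 20. No paired analysis was possible because each group is 1 pool on 1 array. Dim genes, such as Cox7c, lie close to the floor, and the arrays give them no further precision.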
